A study of Mus musculus with 18 samples.

Results

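The genes described here are the 4 mouse Fc gamma receptor genes Fcgr1, Fcgr3, Fcgr4 and Fcgr2b and the genes of the chain they signal through, Fcer1g and Syk. They were chosen by name, and all 6 were among the 11164 genes listed in the table of RPKM values (reads scaled by gene length and by the library's total). RNA was measured in macrophages derived from bone marrow of BAFF KO, APRIL KO and WT mice, with the strain given as C57BL/6J and every sample marked with day 16 of gestation. BAFF and APRIL, a pair of TNF family cytokines, keep B cells and plasma cells alive, and the title of the series places them in preterm birth triggered by inflammation. The cells received 10 ng/ml lipopolysaccharide (LPS, which comes from the outer membrane of Gram-negative bacteria and activates macrophages) for 4 h or were left unstimulated. Each genotype had 2 libraries with LPS (numbered 17 and 18 in BAFF KO, 20 and 21 in APRIL KO and 14 and 15 in WT) and 1 unstimulated library (16 in BAFF KO, 19 in APRIL KO and 13 in WT), and each library stood in 2 columns of the table that were averaged. The 2 columns share a library number in their descriptions, while their titles number them as separate samples, so that taking them as 1 library is a reading of the labels. The labels state neither how the knockout alleles were made nor whether the 2 LPS libraries of a genotype stem from different mice or dishes. All p-values therefore rest on the spread among these libraries alone, and that spread may be technical.

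Fc gamma receptors bind the constant part of IgG and let a macrophage take up or respond to particles and complexes coated with antibody. Fcgr1, Fcgr3 and Fcgr4 encode activating receptors, which hold no signalling motif of their own and pair with the Fc receptor gamma chain encoded by Fcer1g. Once the motif of this chain (an ITAM) is phosphorylated by Src family kinases, it recruits the kinase encoded by Syk. Fcgr2b encodes the inhibitory receptor, whose ITIM motif recruits the lipid phosphatase SHIP1, the product of Inpp5d.

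On the mm10 genome, with the GENCODE M21 annotation, Fcgr2b (chr1:170958617-170976547, minus strand), Fcgr4 (chr1:171018920-171029761, plus strand), Fcgr3 (chr1:171051174-171064935, minus strand) and Fcer1g (chr1:171229572-171234365, minus strand) lie in 1 cluster on chromosome 1. Fcgr1 lies on chromosome 3 (chr3:96282909-96293969, minus strand) and Syk on chromosome 13 (chr13:52583173-52648792, plus strand). Fcgr3 and Fcgr2b are alike in sequence, and 4.27% of the 85-base windows of the Fcgr3 transcripts, the length of a read, also occurred in transcripts of Fcgr2b. Of the Fcgr2b windows 2.35% occurred in another gene, and of the windows of Fcgr1, Fcgr4, Fcer1g and Syk none did. The antisense gene Gm38204 overlaps Fcgr2b, the labels name a strand-marking and another kit, and reads of that pair can therefore not be told apart. A small nuclear RNA gene, Gm26110, lies within Fcgr4 and the microRNA gene Mir6546 within Fcgr3.

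The promoters of the 4 receptor genes are shown because all 4 genes were lower together in BAFF KO under LPS. Each is the RefSeq window on GRCm38.p6 of 250 bases before and 50 bases after a RefSeq start, written 5′ to 3′ on the gene's strand. The Fcgr3 and Fcgr2b windows lie inside the GENCODE spans given above, so their starts are not the outermost annotated ones. A second Fcgr3 window, chr1:171059345-171059644, is not shown. Capitals mark matches, on either strand, to 4 motifs: the interferon-gamma activated site (TTCNNNGAA), an element like that of interferon-stimulated genes (GAAA, any 2 bases, GAAA), the core bound by the myeloid factor PU.1 (GAGGAA) and an NF-kB-like element (GGGA, any 4 bases, CC).
Fcgr1, chr3:96293920-96294219, minus strand: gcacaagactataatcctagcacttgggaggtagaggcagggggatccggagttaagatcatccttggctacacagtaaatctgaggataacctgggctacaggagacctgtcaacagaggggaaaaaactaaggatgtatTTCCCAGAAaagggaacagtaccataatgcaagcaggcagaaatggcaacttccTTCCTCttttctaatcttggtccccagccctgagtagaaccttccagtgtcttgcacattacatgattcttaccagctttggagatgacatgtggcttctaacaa
Fcgr3, chr1:171059354-171059653, minus strand: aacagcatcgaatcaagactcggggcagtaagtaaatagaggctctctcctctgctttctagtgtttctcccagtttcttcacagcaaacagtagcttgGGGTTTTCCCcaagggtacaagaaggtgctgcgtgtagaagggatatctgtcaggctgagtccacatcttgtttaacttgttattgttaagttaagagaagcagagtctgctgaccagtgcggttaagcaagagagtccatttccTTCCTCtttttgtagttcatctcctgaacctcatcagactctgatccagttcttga
Fcgr4, chr1:171018676-171018975, plus strand: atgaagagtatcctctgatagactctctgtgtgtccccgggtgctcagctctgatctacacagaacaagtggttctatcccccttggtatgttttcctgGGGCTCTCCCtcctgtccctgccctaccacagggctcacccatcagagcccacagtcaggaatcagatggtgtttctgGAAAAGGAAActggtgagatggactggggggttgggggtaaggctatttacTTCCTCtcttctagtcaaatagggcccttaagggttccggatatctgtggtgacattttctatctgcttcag
Fcgr2b, chr1:170976022-170976321, minus strand: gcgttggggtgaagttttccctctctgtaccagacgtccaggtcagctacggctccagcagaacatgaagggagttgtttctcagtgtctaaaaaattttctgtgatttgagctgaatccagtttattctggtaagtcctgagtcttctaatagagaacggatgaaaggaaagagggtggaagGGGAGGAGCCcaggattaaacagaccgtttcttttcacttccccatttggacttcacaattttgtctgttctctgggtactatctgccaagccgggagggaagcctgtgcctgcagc
The Fcgr1 window held TTCCCAGAA, a match to the interferon-gamma activated site, 109 bases before the start, and the PU.1 core on the opposite strand 55 bases before it. The Fcgr4 window held GAAAAGGAAA 73 bases before the start, the PU.1 core and an NF-kB-like element, the Fcgr3 window the PU.1 core and an NF-kB-like element, and the Fcgr2b window an NF-kB-like element alone. No matches overlapped. Of 32851 such windows of mouse genes, 8.30% held the interferon-gamma activated site, 3.44% the element like that of interferon-stimulated genes, 28.3% the PU.1 core and 20.7% the NF-kB-like element. A match describes letters and is no evidence of binding.

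Libraries held 5121830 to 6020780 reads in listed genes. Among the 6 genes the reads behind a library's value ran from 60 to 413 for Fcgr4, 256 to 662 for Fcgr3, 343 to 1933 for Fcgr1, 223 to 1281 for Fcgr2b, 1711 to 3464 for Syk and 3745 to 5990 for Fcer1g. The gene of APRIL, Tnfsf13, had at least 169 reads per library in BAFF KO, 0 in each of the 3 APRIL KO libraries, which allows up to 3 of their 17077154 reads, and at least 119 in WT. The gene of BAFF itself was not analysed here, and no check of the BAFF KO label by its target is given. Of 10 macrophage markers 8 were listed, with summed levels of 4599 to 7622 RPKM per library, and of 10 markers of NK and T cells 2 were listed, with sums of 0.654 to 10.4 RPKM.

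Fcgr1 encodes the receptor that binds single IgG molecules with high affinity. With LPS, Fcgr1 stood at 77.4 and 72.0 RPKM in BAFF KO, 132 and 130.0 RPKM in APRIL KO and 139 and 143 RPKM in WT. Without stimulation it stood at 22.5 RPKM in BAFF KO, 23.1 RPKM in APRIL KO and 25.3 RPKM in WT. All 6 LPS libraries lay above all 3 unstimulated ones, and both BAFF KO libraries with LPS lay below the other 4. The share of all genes separated in these ways was not computed, here or for Fcgr4 and Fcgr2b below. Mean Fcgr1 with LPS was 3.32 times the unstimulated level in BAFF KO, 5.67 times in APRIL KO and 5.57 times in WT. On the log2(RPKM + 1) scale, on which all differences below are given and which understates changes of low genes, Fcgr1 rose by 2.19 ± 0.057 (SE) with LPS averaged over genotypes (limma over all 9 libraries, Benjamini-Hochberg adjusted p = 3.0e-08). Under LPS it was lower in BAFF KO than in WT by a log2 difference of -0.91 ± 0.081, which is 0.530 times the WT mean (limma, adjusted p = 0.0014). In APRIL KO the log2 difference from WT was -0.11, with a 95% interval of -0.29 to 0.08 (limma, adjusted p = 0.56).

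Fcgr4 encodes the activating receptor of mice that binds IgG2a and IgG2b. With LPS it stood at 35.4 and 32.1 RPKM in BAFF KO, 51.2 and 56.8 RPKM in APRIL KO and 55.7 and 64.7 RPKM in WT. Unstimulated libraries had 12.3 RPKM in BAFF KO, 10.2 RPKM in APRIL KO and 8.98 RPKM in WT. The unstimulated and LPS libraries did not overlap, nor did BAFF KO and the other genotypes with LPS, a separation that was not counted over all genes. Averaged over genotypes, Fcgr4 rose by a log2 difference of 2.10 ± 0.080 with LPS (limma, adjusted p = 2.6e-07), 2.75 times in BAFF KO, 5.31 times in APRIL KO and 6.71 times in WT as ratios of mean RPKM. Under LPS it was lower in BAFF KO than in WT (log2 difference -0.81 ± 0.11, limma, adjusted p = 0.0066). That call was lost without library 18, where the log2 difference was -0.74 (adjusted p = 0.061). The APRIL KO value differed from WT by -0.15 (95% interval -0.42 to 0.11, limma, adjusted p = 0.54).

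Fcgr3 encodes the low-affinity activating receptor for immune complexes. With LPS it stood at 30.05 and 29.4 RPKM in BAFF KO, 54.7 and 68.7 RPKM in APRIL KO and 58.3 and 61.2 RPKM in WT. Without LPS the values were 52.1 RPKM in BAFF KO, 48.8 RPKM in APRIL KO and 50.6 RPKM in WT. Fcgr3 was thus the receptor gene whose LPS and unstimulated libraries overlapped, with the BAFF KO libraries below and the APRIL KO and WT libraries above their unstimulated counterparts. In BAFF KO it fell by 0.79 on the log2 scale with LPS (SE 0.14, limma, adjusted p = 0.0023). Scaling by median ratios in place of the total of reads gave a log2 difference of -0.34 (adjusted p = 0.080). In APRIL KO the log2 difference was 0.33 (adjusted p = 0.077) and in WT 0.23 (adjusted p = 0.18), and median ratio scaling moved these to 0.86 and 0.78, both past the threshold (limma, adjusted p = 0.0016 and 0.0030). Without library 20 the APRIL KO value was 0.49 (adjusted p = 0.019). The average over genotypes, -0.08 (limma, adjusted p = 0.40), joins unlike values. It was 0.43 with median ratio scaling (adjusted p = 0.0019), 0.28 without library 16 (adjusted p = 0.033) and -0.28 without library 19 (limma, adjusted p = 0.034). Fcgr3 was lower in BAFF KO than in WT by a log2 difference of -0.98 ± 0.12, or 0.498 times the WT mean (limma, adjusted p = 0.0035, and at most 0.049 in the 19 alternatives, median ratio scaling included), while APRIL KO differed from WT by 0.04 (95% interval -0.23 to 0.31, adjusted p = 0.91).

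Fcgr2b, the gene of the inhibitory receptor, rose with LPS in each genotype. With LPS it stood at 23.2 and 26.2 RPKM in BAFF KO, 50.7 and 60.02 RPKM in APRIL KO and 41.4 and 51.9 RPKM in WT. Unstimulated levels were 14.99 RPKM in BAFF KO, 13.3 RPKM in APRIL KO and 10.7 RPKM in WT. Libraries with LPS lay above those without, and those of BAFF KO with LPS lay below those of the other genotypes. The averaged rise with LPS was 1.56 ± 0.099 (limma, adjusted p = 4.6e-06). In single genotypes the log2 difference was 0.68 in BAFF KO (adjusted p = 0.010), 1.97 in APRIL KO (adjusted p = 7.2e-05) and 2.02 in WT (limma, adjusted p = 6.8e-05). The BAFF KO call was lost without library 18 (0.60, adjusted p = 0.0501) and with the lower index column alone (0.50, adjusted p = 0.087). Under LPS Fcgr2b was lower in BAFF KO than in WT (log2 difference -0.88 ± 0.14, limma, adjusted p = 0.010). This call was lost without library 15 (adjusted p = 0.061), 17 (0.077) or 18 (0.056), with log2 differences of -0.73, -0.80 and -0.97. It was also lost with the lower index column alone (-0.76, adjusted p = 0.074). In APRIL KO the difference from WT was 0.25 (95% interval -0.08 to 0.57, limma, adjusted p = 0.43).

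Fcer1g was by far the most abundant of the 6 genes per length. With LPS it stood at 1197 and 1033 RPKM in BAFF KO, 1219 and 1178 RPKM in APRIL KO and 1236 and 1472 RPKM in WT. Unstimulated libraries had 1081 RPKM in BAFF KO, 815 RPKM in APRIL KO and 896 RPKM in WT. The BAFF KO libraries lay on both sides of their unstimulated counterpart, whereas LPS libraries of APRIL KO and WT lay above theirs. Fcer1g rose with LPS by 0.55 ± 0.14 in APRIL KO (limma, adjusted p = 0.012) and by 0.59 ± 0.14 in WT (limma, adjusted p = 0.0097). The APRIL KO call was lost without library 20 (0.53, adjusted p = 0.051). In BAFF KO the difference was 0.04 (95% interval -0.30 to 0.38, adjusted p = 0.82), and 0.50 with median ratio scaling (limma, adjusted p = 0.042). Under LPS no genotype difference of Fcer1g passed the test. BAFF KO minus WT was -0.28 (95% interval -0.55 to -0.0036, limma, adjusted p = 0.19), and APRIL KO minus WT was -0.17 (95% interval -0.45 to 0.10, adjusted p = 0.52).

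Syk, the kinase gene, moved differently from the receptor genes. With LPS it stood at 57.8 and 67.9 RPKM in BAFF KO, 69.8 and 65.3 RPKM in APRIL KO and 56.4 and 45.8 RPKM in WT. Without LPS it stood at 35.25 RPKM in BAFF KO, the lowest of the 9 libraries, 52.5 RPKM in APRIL KO and 47.5 RPKM in WT. The WT libraries with LPS lay on both sides of the unstimulated one. Syk rose with LPS in BAFF KO by 0.81 ± 0.15 (limma, adjusted p = 0.0029). In APRIL KO the difference was 0.36 (adjusted p = 0.072) and in WT 0.10 (adjusted p = 0.61), and median ratio scaling moved both past the threshold, to 0.90 (adjusted p = 0.0022) and 0.64 (limma, adjusted p = 0.012). The APRIL KO value also passed without library 14 or 15 (adjusted p = 0.047 each). The averaged rise of 0.42 ± 0.088 (limma, adjusted p = 0.0026) was lost without library 16, the unstimulated BAFF KO library, where it was 0.23 (adjusted p = 0.088). Under LPS, Syk in BAFF KO differed from WT by 0.30 (95% interval 0.0070 to 0.59, limma, adjusted p = 0.19) and in APRIL KO by 0.40 (95% interval 0.11 to 0.69, limma, adjusted p = 0.23). Neither difference passed the threshold.

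**Figure D1:**
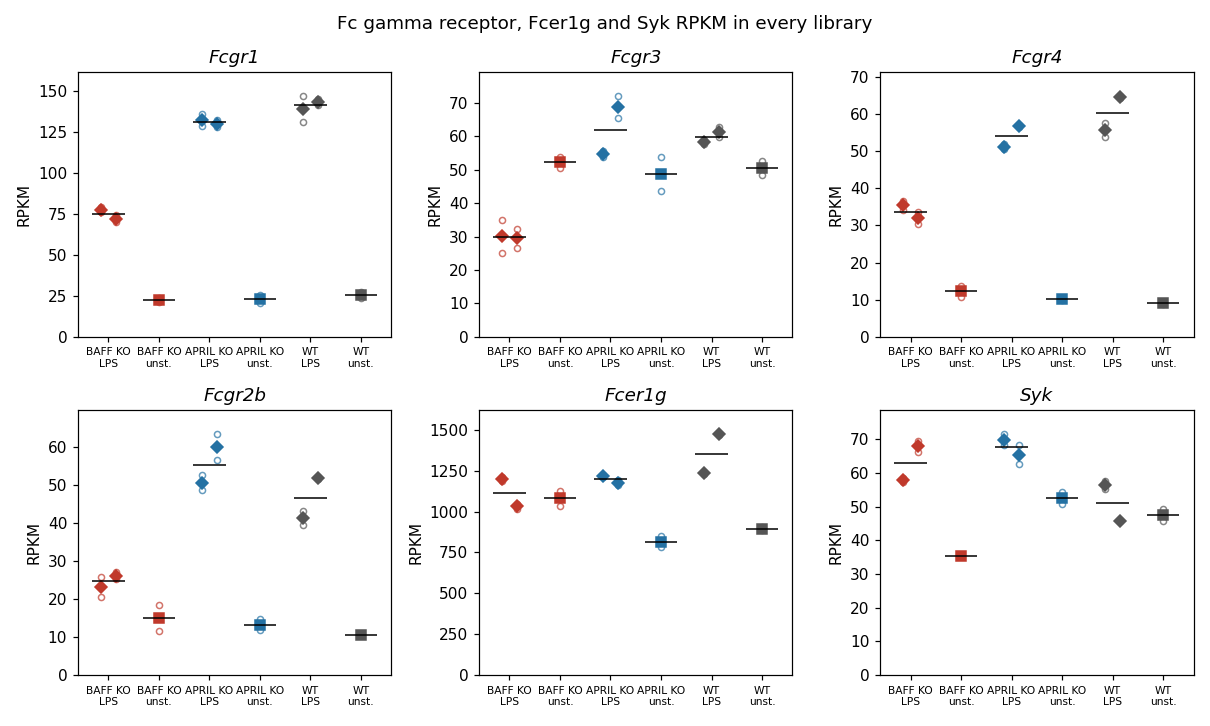
RPKM of each of the 6 genes (vertical axis, linear, from 0) in the 6 groups, with open circles for the 2 columns of a library, filled symbols for the library mean (diamonds with LPS, squares unstimulated) and a line for the group mean. For Fcgr1, Fcgr4 and Fcgr2b the BAFF KO libraries with LPS sit between their unstimulated library and the LPS libraries of the other genotypes, and for Fcgr3 they sit below all other libraries.

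Counted over the 6 genes, LPS averaged over genotypes raised 5, with Fcgr3 not called in either direction (limma, adjusted p below 0.05). Of all 9934 genes tested, 18.1% were called higher and 62.1% lower, or 30.8% higher and 30.3% lower with median ratio scaling, under which Fcgr3 was called as well. In BAFF KO 4 of the 6 rose and Fcgr3 fell, against 16% of all genes higher and 43.8% lower. With median ratio scaling 5 rose there, Fcer1g included and Fcgr3 not called, against 23.1% higher and 17.8% lower. In APRIL KO 4 rose, against 14.4% higher and 47.8% lower, and in WT the same 4, Fcgr1, Fcgr4, Fcgr2b and Fcer1g, rose, against 13.7% higher and 46.7% lower. With median ratio scaling all 6 rose in both, against 23.7% of all genes higher and 18.1% lower in APRIL KO and 23% higher and 16.9% lower in WT.

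Under LPS the 4 receptor genes were lower in BAFF KO than in WT (4 of 6, where 3.99% of all genes were called higher and 4.35% lower). For each of them both BAFF KO libraries lay below both WT libraries, and the share of all genes separated in this way was not computed. Against APRIL KO the same 4 genes were lower in BAFF KO (2.48% of all genes higher and 3.06% lower), with log2 differences of -0.80 for Fcgr1 (limma, adjusted p = 0.0023), -1.02 for Fcgr3 (adjusted p = 0.0038), -0.66 for Fcgr4 (adjusted p = 0.017) and -1.13 for Fcgr2b (adjusted p = 0.0055). Both comparisons use the same BAFF KO libraries. Without library 18, 2 of the 4 calls against WT were left (Fcgr1 and Fcgr3), and without library 17, 2 of the 4 against APRIL KO (Fcgr1 and Fcgr3). Without library 17 the APRIL KO comparison gave -0.73 for Fcgr4 (limma, adjusted p = 0.079) and -1.05 for Fcgr2b (adjusted p = 0.059). The call of Fcgr4 against APRIL KO was also lost without library 18, 20 or 21 (adjusted p = 0.068 to 0.11, with log2 differences of -0.59, -0.74 and -0.59), and with the lower index column alone (-0.61, adjusted p = 0.064). For Fcer1g and Syk, BAFF KO minus APRIL KO was -0.11 in each case, with 95% intervals of -0.38 to 0.17 and -0.40 to 0.18 (limma, adjusted p = 0.70 and 0.71).

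Between APRIL KO and WT under LPS none of the 6 was called by limma, 1 (Syk) had an unadjusted p under 0.05, and voom on recovered reads called 0. Of all 9934 genes tested, limma called 0.0101% higher and 0.201% lower in that comparison. There 1539 of all genes had an unadjusted p under 0.05 and voom called 84. The 95% intervals of the 4 receptor genes reached from -0.42 (Fcgr4) to 0.57 (Fcgr2b).

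**Figure D2:**
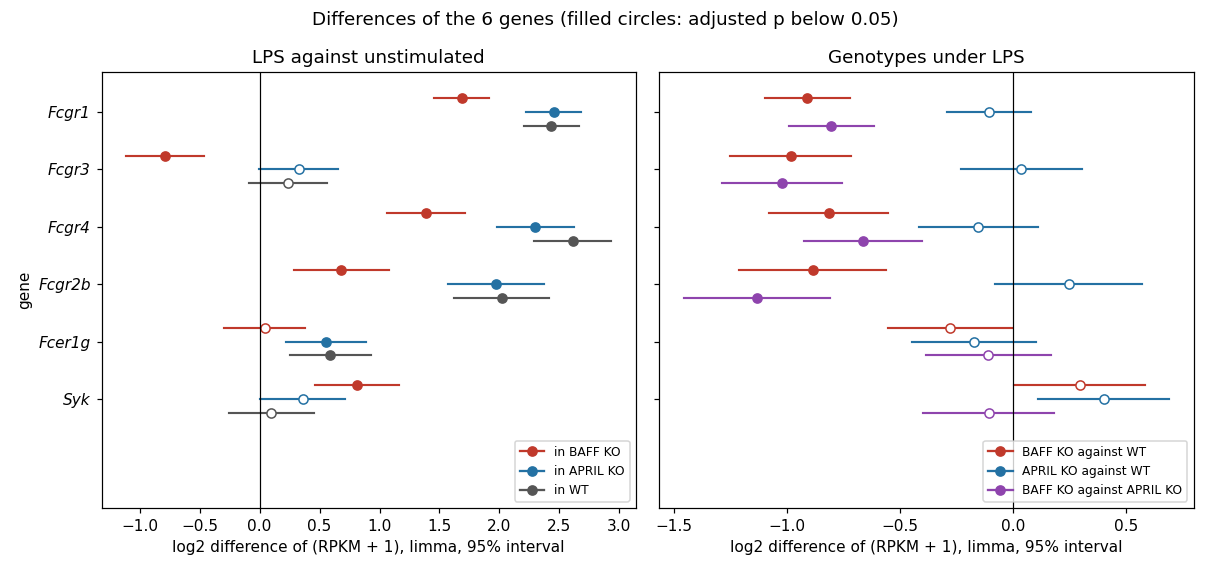
Log2 differences of RPKM + 1 with 95% intervals from limma (horizontal axis) for the 6 genes, with LPS against unstimulated in each genotype on the left and genotypes compared under LPS on the right. The 4 receptor genes lie between -1.13 and -0.66 in both comparisons of BAFF KO under LPS, while Fcer1g and Syk have no filled symbol among the genotype comparisons.

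Whether the LPS response itself differed between genotypes was tested as a difference of differences, which rests on 1 unstimulated library per genotype. For BAFF KO minus WT none of the 6 passed (limma, Benjamini-Hochberg), against 0.221% of all genes called higher and 0.221% lower. All 6 had an unadjusted p under 0.05, as did 2141 of all 9934 genes tested. With voom on recovered reads 3 of the 6 and 600 of all genes were called. The log2 differences of response were -1.22 ± 0.20 for Fcgr4 (limma, adjusted p = 0.058), -1.34 ± 0.24 for Fcgr2b (adjusted p = 0.067), -0.75 ± 0.14 for Fcgr1 (adjusted p = 0.071) and -1.02 ± 0.20 for Fcgr3 (adjusted p = 0.074). For Fcer1g the value was -0.55 (limma, adjusted p = 0.19) and for Syk 0.72 (adjusted p = 0.13). All 4 receptor values lay below 0 and none was a call.

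For APRIL KO minus WT, limma called none of the 6, none had an unadjusted p under 0.05 and voom called 0 (0% of all genes in either direction). The values ran from -0.31 for Fcgr4 to 0.26 for Syk (limma, adjusted p = 0.998 for each). BAFF KO minus APRIL KO was a comparison added after the Fcgr3 values had been seen. In it limma called none of the 6, against 0.0705% of all genes higher and 0.121% lower. An unadjusted p under 0.05 was found for 5 of the 6 and for 1873 of all 9934 genes tested. With voom 3 of the 6 and 321 of all genes were called. Receptor values there ran from -1.29 for Fcgr2b (limma, adjusted p = 0.083) to -0.77 for Fcgr1 (adjusted p = 0.080).

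Without stimulation there was 1 library per genotype, so these differences have no replicate check and no p-value. Intervals below cover counting error only. In BAFF KO against WT the ratio of reads was 0.930 for Fcgr1 (95% interval 0.799 to 1.083), 1.00 for Fcgr3 (0.886 to 1.14), 1.32 for Fcgr4 (0.933 to 1.87) and 1.30 for Fcgr2b (1.09 to 1.55). Of the receptor genes, Fcgr2b was the 1 whose interval did not hold 1. Its 2 columns differed in BAFF KO, at 18.4 (lower index) and 11.6 RPKM (higher index), against 10.7 and 10.6 RPKM in WT. Fcer1g had a ratio of 1.23 (1.18 to 1.28) and Syk 0.751 (0.705 to 0.801). In APRIL KO against WT the ratios ran from 0.915 for Fcgr3 to 1.21 for Fcgr2b. The intervals of Fcgr2b (1.009 to 1.446), Fcer1g (0.885 to 0.969) and Syk (1.04 to 1.17) did not hold 1 there either.

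The make-up of the receptor message differed between LPS and unstimulated libraries, while its sum also differed between genotypes. Summed over the 4 receptor genes, libraries with LPS had 166 and 160 RPKM in BAFF KO, 289 and 316 RPKM in APRIL KO and 294 and 321 RPKM in WT. The unstimulated libraries had 102 RPKM in BAFF KO, 95.4 RPKM in APRIL KO and 95.6 RPKM in WT. Fcgr1 made up 46.6% and 45.1% of the sum with LPS in BAFF KO, 45.7% and 41.2% in APRIL KO and 47.2% and 44.6% in WT. Without LPS its share was 22.1% in BAFF KO, 24.2% in APRIL KO and 26.5% in WT. There Fcgr3 held 51.2% in BAFF KO, 51.1% in APRIL KO and 52.9% in WT. With LPS the share of Fcgr3 was 18.1% and 18.4% in BAFF KO, 18.96% and 21.8% in APRIL KO and 19.8% and 19.1% in WT. With LPS the BAFF KO share of Fcgr1 lay within the range of the other libraries and that of Fcgr3 just below it. These shares are ratios within a library, are free of scaling between libraries and were not tested.

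The ratio of activating to inhibitory message also differed between conditions. Fcgr1 over Fcgr2b was 3.34 and 2.75 with LPS in BAFF KO, 2.60 and 2.17 in APRIL KO and 3.36 and 2.76 in WT. The unstimulated ratios were 1.502 in BAFF KO, 1.74 in APRIL KO and 2.37 in WT. Across genotypes the Fcgr1 ratios with and without LPS overlapped. Fcgr3 over Fcgr2b ran from 1.079 to 1.41 in the 6 LPS libraries and from 3.48 to 4.74 in the unstimulated ones. Fcgr4 over Fcgr2b ran from 0.947 to 1.53 with LPS and from 0.763 to 0.841 without. The message of the shared gamma chain was in excess in every library. Fcer1g over the sum of the 3 activating receptors was 8.38 and 7.74 with LPS in BAFF KO, 5.12 and 4.61 in APRIL KO and 4.89 and 5.47 in WT, against 12.4, 9.94 and 10.6 in the unstimulated libraries of BAFF KO, APRIL KO and WT.

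**Figure D3:**
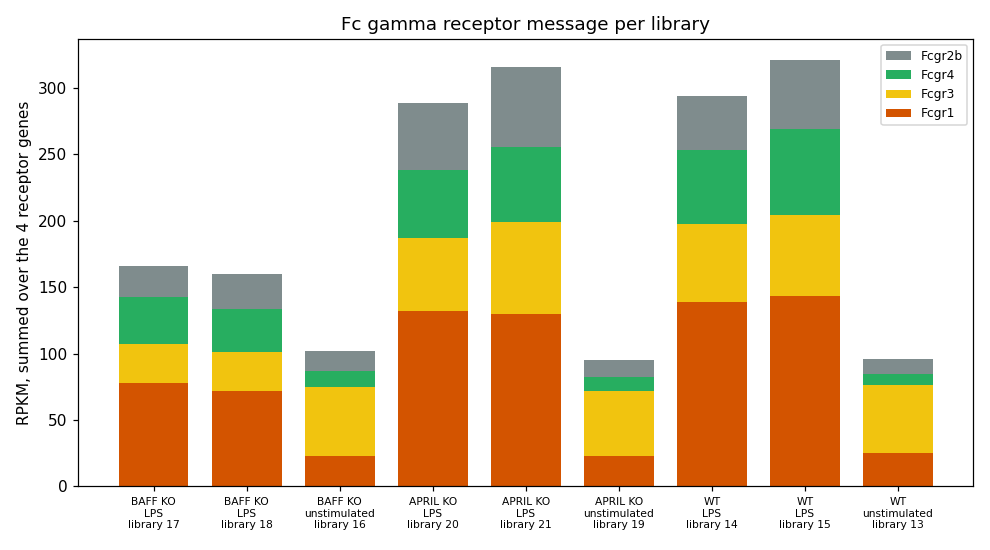
RPKM of Fcgr1, Fcgr3, Fcgr4 and Fcgr2b stacked for each of the 9 libraries (vertical axis, linear, from 0). The 2 BAFF KO libraries with LPS reach 166 and 160 RPKM, against 289 to 321 RPKM in the other LPS libraries and 95.4 to 102 RPKM without stimulation.

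By level per length the order of the genes differed between conditions. In the unstimulated libraries it began with Fcer1g and ended with Fcgr1, Fcgr2b and Fcgr4, and Fcgr3 and Syk changed places between APRIL KO and the other genotypes. With LPS, Fcgr1 came next after Fcer1g in all 6 libraries, and Fcgr3, Fcgr4, Fcgr2b and Syk, which lay within 23.2 to 69.8 RPKM, had no common order.

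Of the genes around the receptors, some kinases of the family that phosphorylates the ITAM were lower in BAFF KO than in WT under LPS. Of 8 tested kinases of the Src, Tec and Syk families (Syk apart), 4 fell and none rose, against 4.35% of all genes lower and 3.99% higher. The list median was -0.39 against 0.02 for all genes tested. Lyn averaged 75.8 ± 5.09 RPKM in BAFF KO and 131 ± 0.261 RPKM in WT with LPS (SD, n = 2 libraries each), a log2 difference of -0.78 ± 0.082 (limma, adjusted p = 0.0024). Fgr averaged 5.60 ± 0.685 RPKM in BAFF KO and 12.8 ± 3.51 RPKM in WT (log2 difference -1.05, limma, adjusted p = 0.018). Src averaged 38.6 RPKM in BAFF KO and 39.1 RPKM in WT and was not called (log2 difference -0.02, limma, adjusted p = 0.94). Fyn was lower, with a log2 difference of -0.64 (limma, adjusted p = 0.016). The call of Fgr was lost without library 15, 17 or 18, and that of Fyn without 14, 17 or 18. The call of Lyn was kept without any single library.

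Of 17 negative regulators tested, 3 rose and 4 fell in BAFF KO against WT under LPS, against 3.99% of all genes higher and 4.35% lower. Ptpn22, a phosphatase that restrains Src family kinases, averaged 5.53 ± 1.17 RPKM in BAFF KO and 14.7 ± 1.66 RPKM in WT (SD, n = 2 libraries each, log2 difference -1.27, limma, adjusted p = 0.0047). Ptpn12, another tyrosine phosphatase gene, stood at 42.3 ± 0.878 RPKM in BAFF KO and 84.4 ± 8.11 RPKM in WT (log2 difference -0.98, limma, adjusted p = 0.0019). Sirpa, an inhibitory receptor gene of phagocytes, and Inpp5d, the gene of SHIP1, were higher by 0.51 and 0.47 (limma, adjusted p = 0.018 and 0.037). The call of Sirpa was lost without library 14, 15 or 18, and that of Inpp5d without any 1 of the 6 LPS libraries. Of 8 other Fc receptor and IgG binding genes, Fcrls was called, lower by 0.74 (limma, adjusted p = 0.0087), and that call was lost without library 14 or 18.

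The other lists moved little in that comparison, in which 3.99% of all genes were called higher and 4.35% lower. On the list of ITAM chains and Syk-coupled receptors 1 of 10 tested genes fell. It was Pirb, which encodes an inhibitory receptor and no ITAM chain, at -0.40 (limma, adjusted p = 0.022). Pirb missed the threshold with quantile normalization (adjusted p = 0.064). Of 26 adaptors and second messengers 1 rose (Pik3r1, 0.89) and 2 fell (Lcp2, -0.41, and Pik3cd, -0.44; limma, adjusted p = 0.018 to 0.045). Lcp2 also missed the threshold with quantile normalization (adjusted p = 0.063). Of 20 phagocytic cup actin genes 1 rose (Crkl, 0.88, limma, adjusted p = 0.012). The calls of Pirb, Pik3r1, Lcp2 and Crkl were lost without library 14, 15, 17 or 18, and that of Pik3cd without any 1 LPS library. In APRIL KO against WT under LPS none of the genes in the 6 lists was called by limma, against 0.0101% higher and 0.201% lower of all genes.

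**Figure D4:**
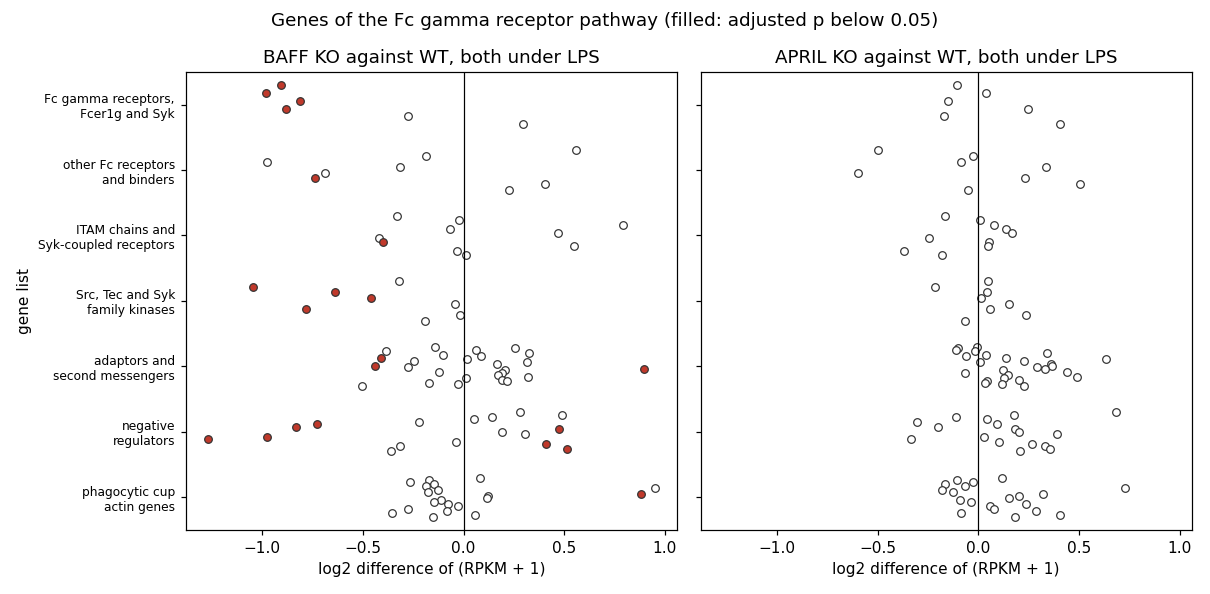
Log2 differences of RPKM + 1 (horizontal axis) between BAFF KO and WT (left) and between APRIL KO and WT (right), all with LPS, with 1 circle per tested gene, the 6 genes in the top line and the 6 pathway lists under it. In BAFF KO filled circles lie left of 0 for the 4 receptor genes and for 4 kinases. Negative regulators (3 right, 4 left) and adaptors (1 right, 2 left) have them on both sides. The other Fc receptors and the ITAM list have 1 each on the left, and the actin genes have 1 on the right. There are none in APRIL KO.

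With LPS averaged over genotypes, the 6 lists split in both directions. Their counts stand beside 18.1% of all genes called higher and 62.1% lower, or 30.8% and 30.3% with median ratio scaling, and are given as descriptions. Of the kinases 5 rose and 3 fell, with Src at 2.70 (limma, adjusted p = 3.3e-08) and Fgr at -1.15 and Tec at -0.80 (limma, adjusted p = 0.00012 and 4.1e-05). Of the negative regulators 4 rose and 10 fell, or 8 and 8 with median ratio scaling. Inpp5d, whose product Fcgr2b recruits, fell by 2.54 on the log2 scale, to 8.90 ± 0.371 RPKM in BAFF KO, 7.09 ± 0.409 RPKM in APRIL KO and 6.13 ± 0.00893 RPKM in WT (SD, n = 2 libraries each), against 41.0, 54.1 and 47.9 RPKM in their unstimulated libraries (limma, adjusted p = 6.3e-08). Cd300a, an inhibitory receptor gene, fell by 2.14, while the phosphatase genes Ptprj and Ubash3b rose by 1.84 and 0.80 (limma, adjusted p at most 0.00013). Of the adaptors 8 rose and 13 fell, or 12 and 9 with median ratio scaling, led by Malt1 (3.02) and Lcp2 (2.14) upward and Vav2 (-2.16) and Lat2 (-1.93) downward (limma, adjusted p at most 2.6e-06).

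Of the Fc receptor and binder genes outside the 6, 2 rose and 3 fell with LPS, or 3 and 2 with median ratio scaling. Trim21, the cytosolic IgG receptor, rose by 3.10 (limma, adjusted p = 6.2e-09) and Fcgrt, the neonatal Fc receptor that recycles IgG, fell by 0.71 (adjusted p = 9.4e-05). Fcrlb (0.47, adjusted p = 0.028, lost without library 13, 15 or 18) and Fcrl1 (-0.69, limma, adjusted p = 0.00069) were the others named by rule. Of the ITAM chains and Syk-coupled receptors 4 rose and 5 fell, or 5 and 4 with median ratio scaling, with Clec4e, which signals through Fcer1g, at 3.37 and Clec5a at 0.67, and Clec4n and Clec7a at -1.23 and -1.11 (limma, adjusted p at most 0.0015). Of the phagocytic cup genes 4 rose and 10 fell, or 12 and 5 with median ratio scaling, with Myo1g (1.11) and Actr2 (0.60) upward and Coro1a (-1.49) and Wipf1 (-1.41) downward (limma, adjusted p at most 4.2e-05). Every gene named in these 2 paragraphs kept its sign with median ratio scaling and with quantile normalization, while the median of all genes moved from -0.44 to -0.02 and -0.18.

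Other blood cells carry these receptors too, and in bulk samples fewer cells of a type and less RNA per cell cannot be told apart. Of 10 tested neutrophil markers 6 were higher in BAFF KO than in WT under LPS and none lower, against 3.99% of all genes higher and 4.35% lower. Summed over the 11 listed, they reached 2736 and 2358 RPKM in BAFF KO, 1636 and 1680 RPKM in APRIL KO and 1383 and 1740 RPKM in WT with LPS, and 5870, 2793 and 3128 RPKM in the unstimulated libraries of BAFF KO, APRIL KO and WT. Neutrophils express Fcgr3 and Fcgr4. With LPS the BAFF KO libraries had the higher marker sums and the lower Fcgr3 and Fcgr4 levels. Without stimulation, with 1 library per genotype, the BAFF KO library had the highest marker sum. Its ratios of reads to WT were 1.00 for Fcgr3 (0.886 to 1.14) and 1.32 for Fcgr4 (0.933 to 1.87), with intervals of counting error that hold 1. Of 5 B cell markers, cells in which Fcgr2b is the main Fc gamma receptor gene, 1 was lower (Cd79a) and none higher, with sums of 16.5 and 26.9 RPKM in BAFF KO, 35.0 and 37.6 RPKM in APRIL KO and 33.2 and 55.9 RPKM in WT with LPS. Of 7 monocyte markers 3 were higher in BAFF KO, with sums of 632 and 743 RPKM in BAFF KO, 345 and 406 RPKM in APRIL KO and 310 and 419 RPKM in WT with LPS. Of 6 mast cell and basophil markers, cells in which Fcer1g serves the IgE receptor, none was called. Skeletal muscle markers, of which 16 of 18 tested were lower in BAFF KO and 8 in APRIL KO, took 0.00952% and 0.0134% of reads in BAFF KO, 0.00602% and 0.0151% in APRIL KO and 0.0862% and 0.0589% in WT with LPS. Macrophage markers held 5200 and 5247 RPKM in BAFF KO, 4872 and 4599 RPKM in APRIL KO and 4690 and 4930 RPKM in WT with LPS, with 1 of 8 higher (Mertk) and 1 lower (Cd14) in BAFF KO against WT. Of 6 tested fibroblast and stromal markers none was called by limma in BAFF KO against WT, with a list median of -1.98. The 9 listed summed to 10.8 and 48.0 RPKM in BAFF KO, 15.9 and 450.4 RPKM in APRIL KO and 243 and 57.2 RPKM in WT with LPS, so that APRIL KO library 21 stood apart. The part of these cells in the receptor differences was not tested.

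The genes whose levels ran closest to each of the 6 over the 9 libraries were named by Pearson correlation of log2(RPKM + 1), as a description. The libraries share 2 conditions and 3 genotypes, so a likeness can come from the LPS response alone. For Fcgr1 they were Mmp13, Il1b and Milr1 (r = 0.999, 0.999 and 0.998), and for Fcgr4 Ms4a6d, Dlgap4 and Vasp (r = 0.998, 0.994 and 0.994). Fcgr2b ran closest to Anxa6, Lipg and Pla2g4a (r = 0.985, 0.980 and 0.979). Fcgr3, whose LPS and unstimulated libraries overlapped, ran closest to Prag1, Mt1 and Polm (r = 0.983, 0.932 and 0.918). For Fcer1g they were Psma4, Dcaf13 and Acaa1a (r = 0.990, 0.961 and 0.958), and for Syk Mitf, Lrch3 and Diaph2 (r = 0.986, 0.980 and 0.979). No gene was shared between the 6 sets.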

How the data were processed

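RNA of 9 libraries in 18 columns was sequenced as single reads of 85 bases, per the labels' protocols, and, per the submitters' processing notes, STAR and the mm10 genome were used. The authors deposited RPKM values for 11164 genes. Neither counter nor annotation is named in these sources. RPKM is relative to a library's total of reads, so strongly induced genes lower all others. Whole reads (within 0.01) were recovered from the RPKM steps for every gene (the steps were those of the reads plus 1, an inference from the values) and served for depth and as an alternative.

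Symbols came from GENCODE M21 (11084 IDs matched, 80 did not). The 2 columns of a library were averaged, and 9934 genes whose mean reached 1 RPKM in any of the 6 groups were tested on log2(RPKM + 1) with limma 3.58.1 in R 4.3.3 (eBayes with a trend, 3 residual degrees of freedom, 2-sided, Benjamini-Hochberg adjusted p below 0.05). An arm with 1 library is assumed to vary like the others. Alternatives were other scalings, pseudocounts and filters, single columns, blocks, voom and leaving out each library.

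The 6 genes, the lists and the tests were chosen with earlier results of these data known. Named genes are the 6, up to 2 called rises and 2 falls per pathway list in the averaged LPS comparison and in either knockout against WT under LPS, and the 3 genes most correlated with each of the 6; Fyn, Cd79a, Mertk and Cd14 were named after their values were seen. 1 gene that this rule names is not reported here. No other columns were present (0 left unmapped). Intervals and floors cover counting error only.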

Additional observations from a re-analysis of the deposited data

Results flagged for a closer look

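Fcgr3 moved in opposite directions with LPS in different genotypes: both BAFF KO libraries with LPS lay below their unstimulated library, while both of APRIL KO and both of WT lay above theirs. The difference between the log2 responses was -1.02 for BAFF KO minus WT (limma, Benjamini-Hochberg adjusted p = 0.074) and -1.12 for BAFF KO minus APRIL KO (limma, adjusted p = 0.080), so neither passed the threshold. Each response rests on 1 unstimulated library, and with median ratio scaling the responses, still of opposite sign, were -0.34 in BAFF KO, 0.86 in APRIL KO and 0.78 in WT.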

How the results depend on the processing

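Of 1086 values with a test, computed under up to 19 alternatives, 1003 kept their direction and their side of the threshold. The cause of the changes below was not tested. Fcgr3 with LPS averaged over genotypes was -0.08 as reported, 0.43 with median ratio scaling and -0.28 to 0.28 when 1 library was left out (19 and 16). Values near 0 also changed sign. Leaving out 1 library gave ranges of -0.066 to 0.15 for Fcer1g with LPS in BAFF KO, -0.052 to 0.24 for Syk with LPS in WT, -0.12 to 0.20 for Fcgr3 in APRIL KO against WT and -0.22 to 0.0069 for Syk in BAFF KO against APRIL KO. For the response of APRIL KO minus WT the ranges were -0.071 to 0.25 for Fcgr3, -0.16 to 0.091 for Fcer1g and -0.21 to 0.11 for Fcgr2b, with 0.07 without library 20. A single column gave -0.014 for Fcer1g with LPS in BAFF KO (higher index) and, for that response, -0.075 for Fcgr3 and 0.027 for Fcer1g (lower index) and -0.19 for Fcgr1 (higher index), while voom gave -0.051 for Fcgr1. Among the unstimulated values, which have no test, a single column turned Fcgr1 to 0.019 in BAFF KO and 0.11 in APRIL KO against WT (higher index) and Fcgr3 to -0.060 in BAFF KO (higher index) and 0.15 in APRIL KO (lower index).

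Leaving out 1 library in turn gave 2 to 4 of the 6 genes called in BAFF KO against WT and in BAFF KO against APRIL KO, 5 to 6 with LPS averaged, 4 to 5 with LPS in BAFF KO and in APRIL KO, 4 to 4 in WT and 0 to 0 in the other comparisons. For the response of BAFF KO minus WT, 0 became 1 with a pseudocount of 0.1 and 1 with quantile normalization. It became 3 with voom and 6 with the 18 columns as separate samples. Of all 9934 genes tested, these 4 settings called 62, 69, 600 and 2193. For BAFF KO minus APRIL KO, 0 became 1 with quantile normalization, 3 with voom and 6 with 18 columns. Of all genes 74, 321 and 1810 were called there. The 18 columns also gave 1 (Syk) in APRIL KO against WT, where 1361 of all genes were called. In BAFF KO against WT they gave 6 in place of 4, with Fcer1g (limma, adjusted p = 0.0062) and Syk (adjusted p = 0.012) added. There 2706 of all genes were called. Those counts hold only if the columns are separate samples, as their titles number them, and not 1 library, as their shared number reads. A replicate block by library order changed no count. One by title number over the 18 columns gave 6, 5 and 1 in these comparisons and 6 in BAFF KO against WT. Over all genes that block called 2081, 1738, 1260 and 2650 in the same order. Library deviations correlated at 0.12, -0.18 and -0.10 between genotypes. Such weak values, from 1 difference between 2 libraries per genotype, cannot decide whether the numbers pair the libraries.

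Counts over all genes moved by more than 1.5 times across the alternatives: 215 to 2706 in BAFF KO against WT (828 as reported), 96 to 1824 against APRIL KO (550), 0 to 1361 in APRIL KO against WT (21), and 0 to 2193 for the response of BAFF KO minus WT (44), 0 to 1810 minus APRIL KO (19) and 0 to 8 for APRIL KO minus WT (0). LPS in WT ran from 3966 to 7023 (5992), and its genes called lower came to 1682 with median ratio scaling, against 4636 as reported. Depth limits Fcgr4 most, with 60 reads in the unstimulated WT library.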
